A study of Arabidopsis thaliana with 2 samples.

Results

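Intron retention was listed for 199 genes in cotyledons of the lefko mutant of Arabidopsis thaliana and its wild type, and 73 of them, the subject here, had a short retained intron. A gene was taken where its shortest listed intron, the gap between the flanking exons in the deposited table, spanned at most 110 nt. That gave 81 genes, of which 8 were left out by name by the rule. A further 101 genes had a longer shortest intron, and all event tables together held 281 genes. The 73 introns measured 21 to 109 nt, with a median of 86 nt. The length rule itself used no measured value, although a gene could enter only if the authors' own test had listed it. The members were chosen with earlier results of these data known.

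Both groups were Arabidopsis of the Col-0 accession grown on plates at 22 °C with 16 h of light and 8 h of darkness. The first was the lefko mutant, named lefko1 in the protocol and in the series title but lefko2 in the sample title; the labels do not describe its allele. The second was the unmutated wild type. The labels give 1 sample per genotype and name seeds as the source, whereas the extraction protocol names cotyledons, the first leaves of the seedling. Each count cell held 3 counts per genotype, called count sets here. Their origin (plants, libraries or runs) is not stated in the sources used here, so SDs and limma p-values measure only the spread between these sets. Fisher's test on summed reads ignores that spread and covers counting error only. What the authors' p-values measure is not stated. Among marker genes, 0 of 8 seed genes and 2 of 6 photosynthesis genes had a listed event, and since the tables list only changed events they do not show which tissue was sampled.

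Introns are removed from nuclear pre-mRNA by the spliceosome, which recognises the 5' splice site, the branch point and the 3' splice site. In plants most introns are short and rich in U or T relative to their exons, and a short intron is thought to be recognised as a unit across its own length. Retention is the most common form of alternative splicing in plants. A retained coding intron often brings a stop codon into the reading frame, and such transcripts may be kept in the nucleus or degraded.

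The introns with the largest changes are shown here because every result below is a ratio of reads that hold these letters to reads that lack them. They are the 12 largest rises and the 5 falls among members with at least 20 reads in each of the 6 count sets. Sequences are the transcribed strand of the RefSeq TAIR10.1 assembly. Capitals mark the first and last 2 bases and, in coding introns, the first in-frame stop codon. In AT1G51380 the stop codon overlaps the first bases of the intron. For introns of untranslated regions (UTRs) and of the non-coding gene AT4G02815 only the first 30 bases are given, with capitals for the first 2. The 12 rises were these:
AT2G23890, chr2:10171270-10171344, plus strand: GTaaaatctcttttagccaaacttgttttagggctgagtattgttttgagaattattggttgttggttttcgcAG
AT1G51890, chr1:19277740-19277826, minus strand: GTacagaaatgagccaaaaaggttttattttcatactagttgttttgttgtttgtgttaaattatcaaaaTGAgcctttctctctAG
AT5G66550, chr5:26560056-26560150, minus strand: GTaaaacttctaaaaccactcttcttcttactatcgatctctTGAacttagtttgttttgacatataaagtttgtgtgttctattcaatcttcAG
AT5G13240, chr5:4225343-4225433, minus strand: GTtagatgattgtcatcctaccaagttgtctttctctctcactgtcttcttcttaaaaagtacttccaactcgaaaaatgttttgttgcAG
RHON1 (5' UTR), chr1:1893948-1894032, minus strand: GTacttcgctatcctgtacccttttcatgt
AT5G17370, chr5:5721878-5721973, minus strand: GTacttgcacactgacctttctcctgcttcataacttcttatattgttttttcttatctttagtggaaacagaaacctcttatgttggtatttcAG
CHX18, chr5:16640869-16640951, minus strand: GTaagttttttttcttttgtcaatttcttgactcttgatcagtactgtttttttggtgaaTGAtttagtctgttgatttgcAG
AT4G02815 (non-coding), chr4:1876038-1876130, minus strand: GTaacacttttgactcttcatcacttcgat
AT5G14610, chr5:4714036-4714116, plus strand: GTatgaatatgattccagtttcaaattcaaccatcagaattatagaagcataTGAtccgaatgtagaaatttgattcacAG
AT5G19210, chr5:6461899-6461991, plus strand: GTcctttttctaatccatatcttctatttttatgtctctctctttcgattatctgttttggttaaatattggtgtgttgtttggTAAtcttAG
AT1G51380, chr1:19049428-19049515, plus strand: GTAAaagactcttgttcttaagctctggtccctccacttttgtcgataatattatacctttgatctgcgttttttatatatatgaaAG
CPK28, chr5:26456840-26456934, minus strand: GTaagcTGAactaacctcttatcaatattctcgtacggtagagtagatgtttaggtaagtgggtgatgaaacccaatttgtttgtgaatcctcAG

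The 5 falls were these, with capitals as above. The junctions of AT1G55280 and RPS6 are in no annotated transcript, and their introns lie inside annotated coding exons:
AT5G20220 (5' UTR), chr5:6822099-6822186, plus strand: GTgggtgttcctgatctgatcttccttgac
AT1G55280, chr1:20624014-20624116, minus strand: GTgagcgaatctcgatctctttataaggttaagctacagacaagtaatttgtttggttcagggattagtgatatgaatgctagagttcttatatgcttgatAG
RPS6, chr5:18844143-18844224, plus strand: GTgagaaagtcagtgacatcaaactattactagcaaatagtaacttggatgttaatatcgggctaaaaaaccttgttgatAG
AT4G19500, chr4:10627382-10627467, plus strand: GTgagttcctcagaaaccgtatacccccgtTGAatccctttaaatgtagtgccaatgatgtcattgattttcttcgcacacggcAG
AT1G20410 (5' UTR), chr1:7081969-7082066, minus strand: GTatattgcagttcgttttttccgatgtca

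Short introns were mostly retained more in the mutant. The inclusion share, the percentage of inclusion reads (reads that hold the intron) among inclusion plus skipping reads (reads across the spliced junction), was higher in lefko for 62 of the 73 introns and lower for 11. That is 84.9% higher, beside 82.4% higher and 17.6% lower among all 199 retention genes and 83.2% higher among all 214 retention events, so the direction of the short introns was close to that of the whole table. The median change, lefko minus wild type, was 19.5 points, against 18.9 points for the 101 genes with longer introns. Every member was listed by the authors' test on the same reads, and the size and direction of a listed change are therefore descriptions. The largest adjusted p (FDR) of any event was 0.0491 in the authors' deposited table. An FDR of at most 0.01 in that table was given to 45 of the 73 members, beside 65.3% of the 199 genes, and a change of at least 20 points was found in 40 of the 73, beside 51.8%.

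The 62 rises lay between 13.5 and 52.8 points with a median of 20.5, and the 11 falls between -5.74 and -56.2 points with a median of -13.7. For the 62 introns with a rise the median share was 42.1% in lefko and 20.2% in wild type. In 39 of them the spliced form still made up most of the reads in lefko, since the mean share stayed under 50%, and in wild type this held for 50. All 11 introns with a fall had a wild-type share over 50%, and 9 of them one over 95%, as did 34 and 25 of the 35 falls over all 199 genes. Since how inclusion reads were counted is not known, words such as mostly retained refer to the reads as counted. With inclusion reads divided by 2 the wild-type share exceeded 50% in 10 of the 11 falls (not in APD1) and in 4 in place of 12 of the 62 rises. Fewer reads stood behind the extremes. Of the 54 members with at least 20 reads in each set, 49 were higher and 5 lower, with rises of 13.5 to 29.8 points and falls of -5.74 to -21.7 points, and of the 19 with fewer reads 13 were higher and 6 lower. Over all 199 genes the split was alike, with 131 higher and 16 lower of 147 at that coverage and 33 higher and 19 lower of the 52 with fewer reads.

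**Figure D1:**
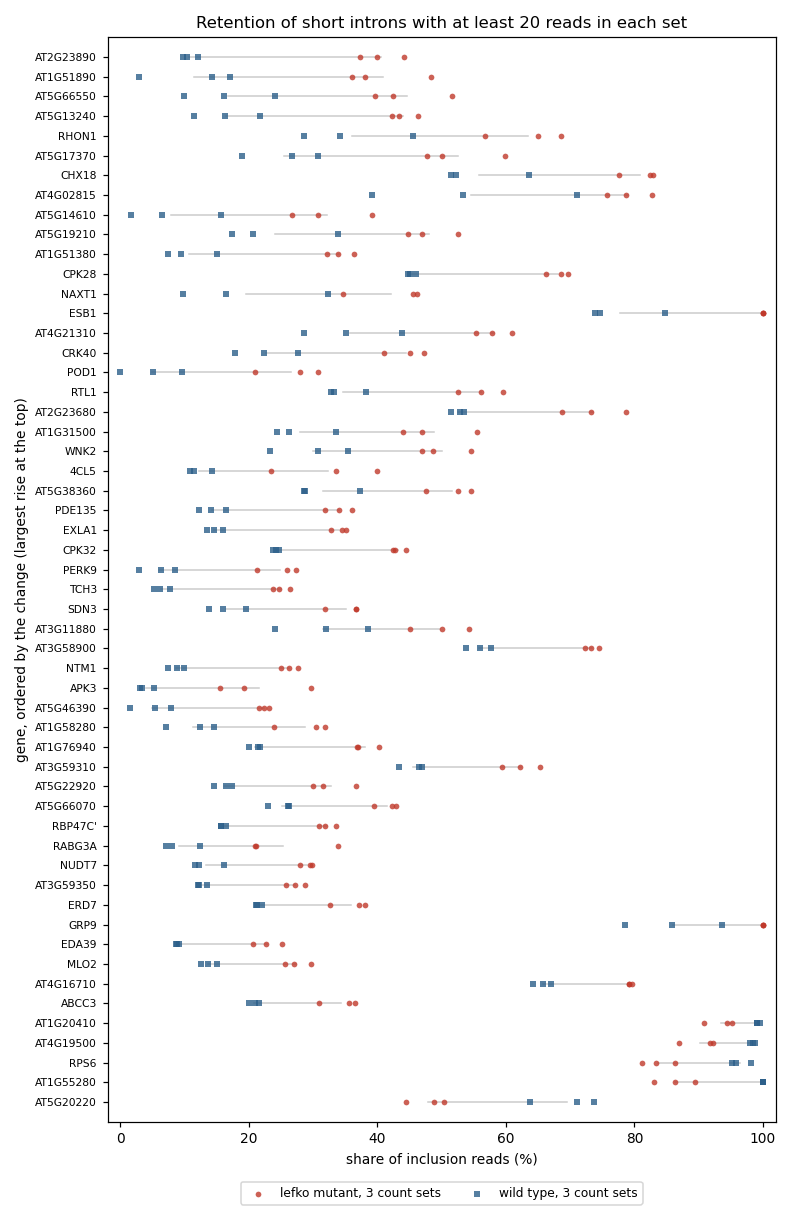
Inclusion share in percent (horizontal axis) of the 54 short introns with at least 20 reads in each set, 1 gene per line, ordered by the change. Circles are the 3 lefko sets, squares the 3 wild-type sets and the grey line joins the means; the 49 introns at the top lie further right in lefko and the 5 at the bottom further left.

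Among the better-covered members the largest rise was in AT2G23890, annotated as a 5'-nucleotidase of the HAD hydrolase family. Its share was 37.3, 44.2 and 40% in the lefko sets, against 12.1, 9.76 and 10.3% in the wild-type sets. All lefko sets lay far above all wild-type sets, with means of 40.5% ± 3.46 in lefko and 10.7% ± 1.25 in wild type (SD, 3 sets) and a change of 29.8 points (SE 2.12). AT1G51890, a receptor-like kinase gene with leucine-rich repeats, had 36.1, 48.3 and 38.1% in the lefko sets, against 17.1, 14.3 and 2.94% in the wild-type sets. AT5G66550, which encodes a Maf-like protein, had 39.7, 51.6 and 42.4% in the lefko sets, against 9.89, 16.1 and 24% in the wild-type sets. The wild-type sets of both genes were more scattered than those of AT2G23890 but did not reach the lefko range. In AT5G13240, annotated as a transcription regulator, the shares were 43.3, 42.3 and 46.3% in the lefko sets, against 21.7, 11.5 and 16.3% in the wild-type sets. RHON1, whose product acts on chloroplast RNA, had 65, 68.5 and 56.8% in the lefko sets, against 34.2, 28.6 and 45.5% in the wild-type sets. The genotypes were apart in both genes, and RHON1 was the only one of these 12 with the intron in a 5' UTR. AT5G17370, a WD40 repeat gene, had 50, 47.7 and 59.8% in the lefko sets, against 18.9, 26.7 and 30.8% in the wild-type sets.

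The next 6 rises were of much the same size. CHX18, a gene of the cation/proton exchangers, had 77.6, 82.9 and 82.4% in the lefko sets, against 51.5, 63.6 and 52.2% in the wild-type sets. Its wild-type share was 55.8% as counted and 38.9% with inclusion reads divided by 2. The non-coding gene AT4G02815 had 78.7, 82.7 and 75.8% in the lefko sets, against 53.3, 39.1 and 71.1% in the wild-type sets. In that gene 1 wild-type set came close to the lefko range, and the SE of the change of 24.5 points was 9.45. AT5G14610 and AT1G51380 encode RNA helicases of the DEAD-box family, enzymes that remodel RNA. The share of AT5G14610 was 30.8, 26.7 and 39.1% in the lefko sets, against 6.49, 1.64 and 15.6% in the wild-type sets, and that of AT1G51380 was 32.2, 33.9 and 36.4% in the lefko sets, against 15.1, 7.46 and 9.46% in the wild-type sets. In both, the intron was removed in most wild-type reads and was held by a larger minority of reads in lefko. AT5G19210, a gene for a nucleoside triphosphate hydrolase family protein, had 47, 44.7 and 52.6% in the lefko sets, against 17.4, 33.9 and 20.6% in the wild-type sets. CPK28, a calcium-dependent protein kinase that limits immune signalling, had 69.6, 68.6 and 66.2% in the lefko sets, against 46, 44.8 and 45.1% in the wild-type sets. Its 3 sets differed by little in either genotype, with means of 68.1% ± 1.74 in lefko and 45.3% ± 0.62 in wild type (SD, 3 sets).

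Falls were fewer among these members. In AT5G20220, a zinc knuckle gene with the intron in its 5' UTR, the share was 44.5, 50.3 and 48.8% in the lefko sets, against 73.7, 63.8 and 71% in the wild-type sets. In AT1G55280, a gene of the lipase and lipoxygenase family, it was 83, 89.5 and 86.3% in the lefko sets, against 100, 100 and 100% in the wild-type sets. For RPS6, a TIR-NBS-LRR disease resistance gene (not the ribosomal protein of that name), it was 81.2, 83.3 and 86.3% in the lefko sets, against 98.2, 95.8 and 95.2% in the wild-type sets. No lefko set of these 3 genes reached the wild-type range, and the largest of the 3 changes, in AT5G20220, was -21.7 points (SE 3.4). AT1G55280 had 0 of 121 skipping reads in wild type, which allows a spliced share of up to 2.48%. AT4G19500, annotated as a nucleotide-binding receptor, had 86.9, 92.2 and 91.7% in the lefko sets, against 98, 98.5 and 98.8% in the wild-type sets. AT1G20410, a pseudouridine synthase family gene, had 94.4, 90.9 and 95.2% in the lefko sets, against 99.5, 99.1 and 99.1% in the wild-type sets. In the last 2 the intron was almost always retained in wild type and slightly less so in lefko.

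The remaining 6 falls had fewer than 20 reads in some set. SRD2 encodes a subunit of the complex that activates transcription of small nuclear RNA genes, the RNA parts of the spliceosome among them, and its intron lies in the 5' UTR. Its share was 66.7, 26.7 and 56.5% in the lefko sets, against 100, 100 and 100% in the wild-type sets. Only 19 reads in wild type stood behind the 100%, and 0 skipping reads of 19 allows a spliced share of up to 15.8%. AT1G61440, an S-locus lectin kinase gene, had 77.8, 28.6 and 25% in the lefko sets, against 100, 100 and 100% in the wild-type sets, on 29 reads in lefko and 7 in wild type. LpxC2, a gene related to lipid A biosynthesis, had 45.5, 19 and 75% in the lefko sets, against 100, 88.9 and 100% in the wild-type sets. The lefko sets of these 3 genes scattered widely, yet all stayed below the wild-type sets. APD1, a RING finger gene, had 17.4, 19 and 27.8% in the lefko sets, against 56.2, 75 and 65.2% in the wild-type sets. SPI, which encodes a BEACH domain protein, had 94, 81.6 and 87.9% in the lefko sets, against 92.9, 100 and 100% in the wild-type sets. GEX1, a gamete-expressed gene, had 82.6, 90.3 and 81.2% in the lefko sets, against 100, 100 and 85.7% in the wild-type sets. For SPI and GEX1 the ranges of the genotypes overlapped.

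Among the 73 members the lowest FDR values in the authors' deposited table belonged to CPK28 (3.41e-13), ABCG40 (4.55e-13), SRD2 (3.82e-12), TCH3 (1.94e-11) and ESB1 (1.89e-10). ABCG40, a plasma membrane importer of abscisic acid, had 100, 100 and 100% in the lefko sets, against 59.1, 51.9 and 72.7% in the wild-type sets. All 56 lefko reads held the intron, and 0 skipping reads of 56 allows a spliced share of up to 5.36%. TCH3, a touch-induced calmodulin-like gene, had 23.8, 24.7 and 26.4% in the lefko sets, against 5.18, 6.22 and 7.66% in the wild-type sets. Its event had 2744 reads in lefko against 8397 in wild type, the largest wild-type number among the members, with skipping reads at 2061 in lefko against 7868 in wild type and inclusion reads at 683 in lefko against 529 in wild type. CPK28 had the most reads in lefko, 8357, against 5915 in wild type. The event thus had more reads in lefko for CPK28 and fewer for TCH3, while the share was higher in lefko for both.

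The 2 shortest introns stood apart from all others in length and sequence. GRP9, a glycine-rich protein gene, had a listed intron of 21 nt, and ESB1, which encodes a dirigent protein needed for the Casparian strip of roots, one of 33 nt. The same 20 nt stand at both splice sites of GRP9 and the same 51 nt at both of ESB1 (a direct repeat), whereas 65 of the 73 introns had a repeat under 5 nt. They are shown because their letters repeat in the flanking exons, with GC contents of 57.1% and 63.6% beside a median of 33.7% over the members:
GRP9, chr2:1993724-1993744, plus strand: GTggaggacactatggaggAG
ESB1, chr2:12301156-12301188, minus strand: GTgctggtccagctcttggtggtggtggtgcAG

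GRP9 had 100, 100 and 100% in the lefko sets, against 78.5, 85.8 and 93.7% in the wild-type sets. ESB1 had 100, 100 and 100% in the lefko sets, against 84.7, 74.6 and 73.9% in the wild-type sets. In lefko both had no skipping read at all, 0 of 1417 reads for GRP9 and 0 of 270 for ESB1, which allow spliced shares of up to 0.212% and 1.11%. The wild-type sets of GRP9 differed from each other by more than counting error, with 79, 64 and 12 skipping reads. Whether alignment across the repeats affects these counts was not tested. Without both genes 60 introns were higher and 11 lower, an alternative chosen after seeing the data. The next shortest introns were those of AT4G16710 (65 nt), a glycosyltransferase gene, with 79.1, 79.7 and 79.1% in the lefko sets, against 65.8, 64.2 and 67% in the wild-type sets, and of AT5G47510 (66 nt), a gene for a Sec14-like lipid transfer protein, with 35, 33.3 and 32% in the lefko sets, against 0, 33.3 and 0% in the wild-type sets. AT4G16710 had some of the tightest sets of all members, while 1 of the wild-type sets of AT5G47510 reached the lefko range on 9 reads.

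At the length limit nothing marked a boundary. Just inside lay AT1G55280 (103 nt), AT1G31500 (109 nt) and RABG3A (109 nt), with changes of -13.7, 20.8 and 16.1 points. Just outside lay AT2G26810 (112 nt), AT2G36980 (113 nt) and AT5G04980 (115 nt), with changes of 43.8, -20.1 and 36.8 points, all 3 on few reads. Falls made up 1 of 22 introns of up to 80 nt, 6 of 39 introns of 81 to 95 nt and 4 of 12 introns of 96 nt or more. The median changes of short and longer introns differed by 0.624 points, a difference that was not tested. The levels did differ, with a median share of 44.5% in lefko and 24.2% in wild type for short introns, and 78.7% in lefko and 60.4% in wild type for longer ones. How inclusion reads were counted over introns of different length is not given in the sources used here, so these levels cannot be compared between lengths.

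**Figure D2:**
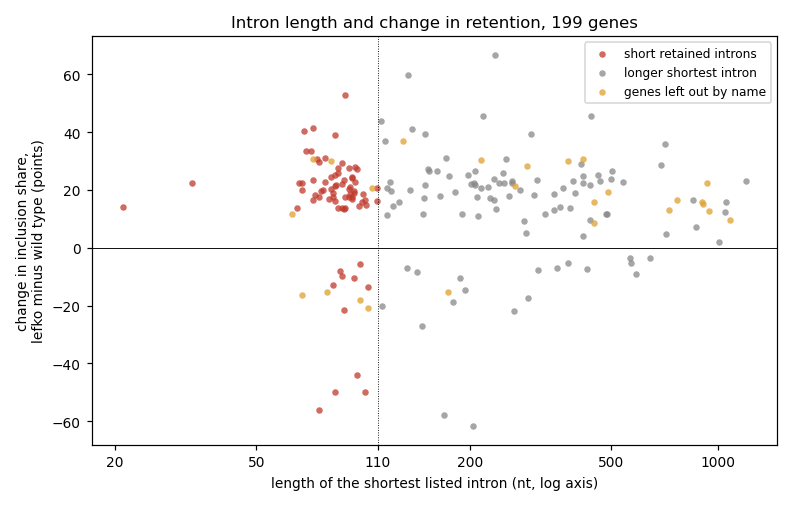
Change in inclusion share, lefko minus wild type in points, against the length of the shortest listed intron in nt on a log axis, for all 199 retention genes. The dotted line marks 110 nt; rises of 13.5 to 52.8 points and falls of -5.74 to -56.2 points among the short introns lie at heights also taken by longer ones.

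Among the 62 introns with a higher share, inclusion reads were more numerous in lefko in 59 and skipping reads fewer in 41, and 38 showed both. Of the 164 rises over all 199 genes 152, 118 and 106 did so. In 21 inclusion reads were more numerous and skipping reads not fewer in lefko (skipping reads were equal in AT3G52270), and in 3 both were fewer. The median ratio of lefko to wild type was 2.30 for inclusion reads and 0.846 for skipping reads, with 0.5 added to each count. Among the 11 introns with a lower share, skipping reads were more numerous in lefko in all 11, with a median ratio of 8 when a count of 0 was taken as 3 reads (9 with 0.5 added to each count), and inclusion reads were fewer in 3. Of the 35 falls over all 199 genes skipping reads were more numerous in 35 and inclusion reads fewer in 11, so these patterns were general to the listed events. Summed inclusion and skipping reads of an event had a median ratio of 1.31, beside 1.36 over all 199 genes. The sources used here give no totals of the libraries, so a ratio of reads holds both the depth of the libraries and the amount of the transcript, and in these bulk samples fewer cells of a type and less RNA per cell cannot be told apart. Reads over all listed events were 166819 to 178604 per lefko set and 168946 to 187225 per wild-type set.

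**Figure D3:**
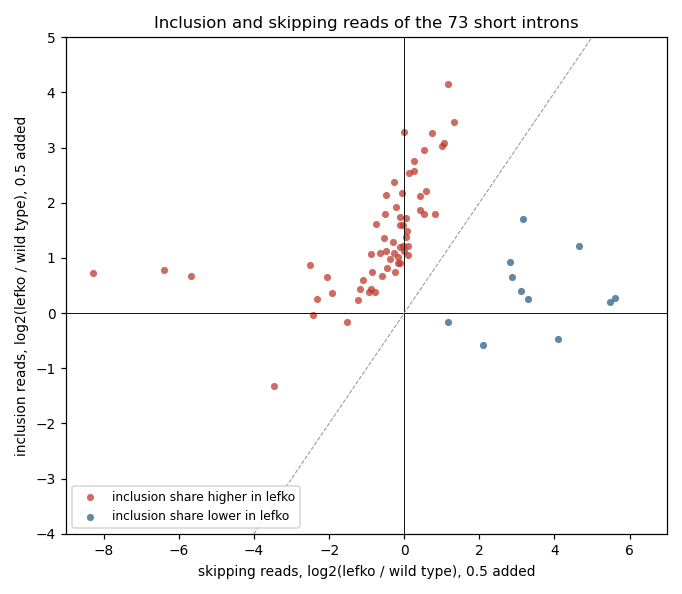
Ratio of lefko to wild-type reads for each of the 73 short introns, on log2 axes with 0.5 added to each count, for skipping reads (horizontal) and inclusion reads (vertical). Points above the dashed line of equal ratios have a higher share in lefko; the 62 rises spread mostly upwards, the 3 points far to the left have 0 skipping reads in lefko, and the 11 falls all lie right of 0.

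Most short introns interrupt coding sequence. In the reference annotation 60 of 73 (82.2%) lay within coding sequence, 9 in a 5' UTR, 0 in a 3' UTR and 1 in a non-coding gene, and 3 had a junction in no annotated transcript. An intron was counted as coding if it was so in any transcript, and 6 of the 60 lie outside the coding sequence in another annotated transcript. Of the longer introns 56.4% were coding and 27.7% in a 5' UTR. Of all annotated introns of up to 110 nt 96.1% are coding. Among the 60 coding introns 56 were higher and 4 lower in lefko, and among the 9 introns in a 5' UTR 5 were higher and 4 lower. All 3 introns with an unannotated junction (LpxC2, AT1G55280 and RPS6) were lower. Over all 199 genes 126 coding introns were higher and 7 lower, 27 in a 5' UTR were higher and 15 lower, and 4 with an unannotated junction were higher and 8 lower. For 70 of the 73 introns the annotation already holds a transcript that keeps the intron within an exon, which is so for 6.46% of all annotated introns of up to 110 nt and for 22.2% of all introns of these genes. Among the longer retained introns it held for 77.2%, and over all 199 retention genes for 84.4%. How the events were drawn from annotation or reads is not given in the sources used here.

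Retention of 39 of the 60 coding introns would bring a stop codon into frame, 65%. Of the 71737 annotated coding introns of up to 110 nt 83.9% hold such a stop, and of the coding longer introns 98.2%. Within the members the percentage rose with length. It was 42.1% up to 80 nt, 72.7% from 81 to 95 nt and 87.5% from 96 to 110 nt. Length was the value the rule selected on, so the lower percentage beside longer introns is not a separate trait of the members. The difference from annotated introns was not tested. The stop began at intron base 2 to 85, with a median of 25, and in 13 introns within the first 10 bases, as in the CPK28 and AT1G51380 introns printed above. The CPK28 intron lies outside the coding sequence in another annotated transcript, where it would bring no stop into frame. Of the 21 introns with no stop, 12 have a length divisible by 3 and would insert 7 to 32 residues without shifting the frame, among them AT2G23890 (25 residues), AT5G17370 (32 residues), ESB1 (11 residues) and GRP9 (7 residues). The other 9, such as ABCG40 and EXLA1, shift the frame. With at least 20 reads in each set the share with a stop was 68.1%. What the retained transcripts encode in these cells was not measured.

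**Figure D4:**
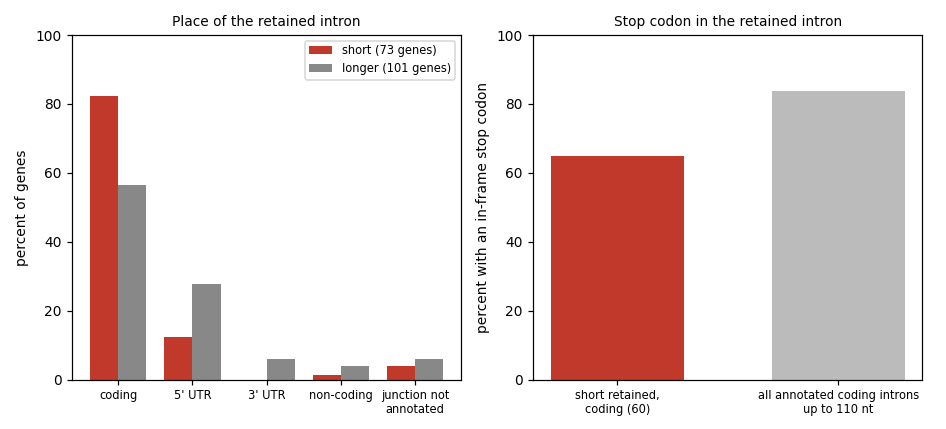
Left, percent of genes by place of the retained intron for the 73 short and 101 longer introns. Right, percent of coding introns with an in-frame stop codon for the 60 short retained introns (65%) and all annotated coding introns of up to 110 nt (83.9%); bars start at 0.

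The short introns had a median GC content of 33.7%, against 41.2% in the flanking exons, and 61 of 73 were lower in GC than their exons. All annotated introns have a median length of 101 nt and a median GC content of 32.8%, and 56.9% of them span at most 110 nt. Of the 73 members 70 begin with GT and end with AG, APK3 and AT1G61440 begin with GC, and POD1 begins with AT and ends with AC. The 11 introns with a fall had a median GC content of 40.8% and a median T content of 31.9%. The 62 with a rise had 33.3% GC and 41.3% T, and annotated introns of up to 110 nt 32.6% GC and 41.1% T. Place in the gene also differed, with 4 of the 11 falls but 56 of the 62 rises coding, and the difference in letters was not tested. The 5' letters GTAAG, searched at the start of the intron on its own strand, were present in 15.1% of members and in 17.1% of annotated introns of up to 110 nt.

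A pair of members begin with the 8 letters typical of introns removed by the minor (U12) spliceosome, ATATCCTT or GTATCCTT, a search chosen after these data were seen. They are POD1, a gene required for pollen tube guidance, and RABG3A, a small GTPase of the late endosome. They amount to 2.74% of the 73 members, beside 2.34% of the 214 retention events and 0.177% of annotated introns of up to 110 nt, on counts of 2, 5 and 132. Capitals mark these letters, the last 2 bases and the stop codon:
POD1, chr1:25481969-25482052, minus strand: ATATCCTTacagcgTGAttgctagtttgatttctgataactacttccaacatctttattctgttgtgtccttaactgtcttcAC
RABG3A, chr4:6133274-6133382, plus strand: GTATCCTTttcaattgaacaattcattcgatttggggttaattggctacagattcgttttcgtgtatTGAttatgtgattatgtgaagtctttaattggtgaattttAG

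POD1 had 21, 28 and 30.8% in the lefko sets, against 5.13, 0 and 9.52% in the wild-type sets. RABG3A had 21, 21.1 and 33.8% in the lefko sets, against 12.4, 7.96 and 7.07% in the wild-type sets. Both introns were spliced out of most wild-type reads, and in both the lefko sets lay above the wild-type sets. A match to these letters does not show which spliceosome removes an intron.

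In 5 members a second retained intron was listed. CPK28 was also retained at an intron of 105 nt, with 49.9, 52.7 and 51.6% in the lefko sets, against 32.3, 33.5 and 35.7% in the wild-type sets. 4CL5, a ligase of phenylpropanoid and lignin synthesis, had 23.4, 33.6 and 40% in the lefko sets, against 10.8, 14.3 and 11.5% in the wild-type sets at the intron of 91 nt, and 36.7, 35.1 and 33.3% in the lefko sets, against 12, 12.4 and 18% in the wild-type sets, at one of 93 nt. In both genes the introns changed in the same direction by similar amounts. AT3G59310, a gene of the solute carrier 35 family, had 59.4, 62.2 and 65.3% in the lefko sets, against 46.9, 43.3 and 46.5% in the wild-type sets, and at a second intron of 109 nt that starts with GTATCCTT 67.2, 76 and 79.6% in the lefko sets, against 47.3, 45.9 and 48.3% in the wild-type sets. In AT4G02815 the second intron, of 147 nt, had 85.9, 88.3 and 86.4% in the lefko sets, against 72.2, 66.4 and 64.3% in the wild-type sets. AT5G46390, a gene of the S41 peptidase family, changed in opposite directions: its intron of 91 nt had 21.6, 23.2 and 22.4% in the lefko sets, against 1.43, 5.36 and 7.89% in the wild-type sets, while an unannotated junction of 169 nt had 94.9, 92.5 and 95% in the lefko sets, against 100, 97.4 and 100% in the wild-type sets. No member, 0 of 73, had an event in another table, while 21 of the other 126 retention genes had one, 9 of them among the 101 with longer introns.

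Members with a role in RNA handling by their annotated description numbered 10, with 8 higher and 2 lower. Among the 15 retention genes so described 13 were higher and 2 lower. Here and in the groups below, the retention genes so described exclude those left out by name. Besides the helicases, RHON1, SRD2 and AT1G20410 above, AT1G74390, a ribonuclease H-like gene, had 39, 40.6 and 46.9% in the lefko sets, against 16.1, 0 and 9.52% in the wild-type sets. RTL1, an RNase III-like enzyme that suppresses small interfering RNAs, had 59.6, 52.5 and 56.1% in the lefko sets, against 33.3, 32.7 and 38.2% in the wild-type sets. SDN3, a nuclease that degrades small RNAs, had 36.7, 31.8 and 36.7% in the lefko sets, against 15.9, 19.6 and 13.8% in the wild-type sets. All 3 of these introns were spliced in most wild-type reads. The RNA-binding protein genes AT1G76940 and RBP47C' changed alike. AT1G76940 had 36.8, 37 and 40.2% in the lefko sets, against 21.4, 21.7 and 20% in the wild-type sets, and RBP47C' had 33.6, 30.9 and 31.8% in the lefko sets, against 15.6, 15.7 and 16.4% in the wild-type sets. The median change of the 10 was 20 points, against 19.1 points over those 15. These words, and those of the groups below, were chosen after the data had been seen.

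Protein kinases numbered 9, with 8 higher and 1 lower (AT1G61440), and receptor kinases of the cell surface were the most common kind. AT1G79620, a leucine-rich repeat kinase gene, had 85.7, 100 and 87.5% in the lefko sets, against 71.9, 54.5 and 54.5% in the wild-type sets. CRK40, a cysteine-rich receptor kinase gene, had 45, 41.1 and 47.3% in the lefko sets, against 17.8, 27.7 and 22.3% in the wild-type sets. PERK9, a proline-rich extensin-like receptor kinase gene, had 27.4, 26 and 21.2% in the lefko sets, against 6.38, 8.57 and 2.94% in the wild-type sets. PERK9 was mostly spliced in both genotypes, whereas the wild-type share of AT1G79620 was 60.3% as counted and 43.7% with inclusion reads divided by 2. Among the other kinases CPK32, a calcium-dependent kinase like CPK28, had 42.7, 42.5 and 44.5% in the lefko sets, against 24.7, 23.8 and 24.2% in the wild-type sets. WNK2, a kinase without the usual catalytic lysine, had 46.9, 48.7 and 54.5% in the lefko sets, against 23.3, 35.5 and 30.8% in the wild-type sets, and AT3G59350, another protein kinase gene, had 28.7, 25.7 and 27.2% in the lefko sets, against 13.5, 12.3 and 12% in the wild-type sets. With CPK28, CPK32 and AT3G59350 the kinases include the 3 introns with the most reads in lefko, whose sets varied by a few points at most. The median change of the 9 was 20.2 points, the same as over the 19 retention genes matched by the words for kinases and phosphatases, of which 16 were higher and 3 lower.

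All 5 members annotated for transcription or chromatin were higher in lefko, as were all 7 retention genes so described. AT3G52270, a gene for the beta subunit of the general factor TFIIF, had 81.8, 53.8 and 72.7% in the lefko sets, against 50, 0 and 0% in the wild-type sets, the largest change of any member but on 35 reads in lefko and 13 in wild type. BBX19, a B-box regulator of flowering and light responses, had 15.9, 27 and 28.6% in the lefko sets, against 11.1, 0 and 0% in the wild-type sets. NTM1, a NAC factor tethered to membranes, had 25, 27.6 and 26.3% in the lefko sets, against 8.78, 9.92 and 7.43% in the wild-type sets. NTM1 rested on the most reads of these 3 and its sets were tight. HTR12, the histone H3 variant of centromeres, had 93.3, 100 and 100% in the lefko sets, against 77.1, 84.8 and 90.3% in the wild-type sets, and AT5G13240 is given above. HTR12 was the member with the fewest reads in lefko relative to wild type after TCH3, and its intron was largely retained in both.

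Transport and membrane traffic held 10 members, 9 higher and 1 lower, with a median change of 21 points, against 22.4 over the 14 retention genes so described, of which 13 were higher and 1 lower. NAXT1, a nitrate efflux transporter, had 45.5, 46.1 and 34.6% in the lefko sets, against 9.68, 16.4 and 32.3% in the wild-type sets. PDE135, a xanthine and uracil permease family gene, had 31.9, 36 and 34.1% in the lefko sets, against 14.1, 12.2 and 16.5% in the wild-type sets. ABCC3, a vacuolar ABC transporter, had 30.9, 35.6 and 36.5% in the lefko sets, against 21, 20 and 21.5% in the wild-type sets. In NAXT1 the wild-type sets ran almost up to the lefko sets, whereas those of PDE135 and ABCC3 were well apart. UMAMIT3, of a family of amino acid and metabolite transporters, had 71.4, 100 and 100% in the lefko sets, against 44.4, 85.7 and 63.6% in the wild-type sets, with overlapping ranges on 29 reads in lefko and 27 in wild type. ABCG40, CHX18, AT5G47510, AT3G59310, RABG3A and the lower SPI complete the list.

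Genes of ubiquitin transfer and proteolysis numbered 6, with 5 higher and 1 lower, beside 7 higher and 3 lower among the 10 retention genes so described. The F-box gene AT3G58900 had 74.5, 72.3 and 73.2% in the lefko sets, against 53.8, 55.9 and 57.7% in the wild-type sets. AT5G22920, a gene with CHY and RING zinc fingers, had 36.7, 29.9 and 31.5% in the lefko sets, against 16.4, 14.6 and 17.3% in the wild-type sets. AT5G66070, a RING/U-box gene, had 39.4, 42.9 and 42.2% in the lefko sets, against 23, 26.1 and 26.3% in the wild-type sets. These 3 changed by 16.4 to 17.6 points with no overlap between the genotypes. AT1G20380, a prolyl oligopeptidase gene, had 47.4, 12.5 and 50% in the lefko sets, against 40, 0 and 0% in the wild-type sets, and its ranges overlapped on 45 reads in lefko and 20 in wild type. AT5G46390 was the fifth higher member and APD1 the lower one.

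Stress and defence genes by description numbered 6, with 5 higher and 1 lower, RPS6, beside 9 higher and 2 lower among the 11 retention genes so described. MLO2, a membrane protein that powdery mildew requires for entry, had 27, 25.6 and 29.7% in the lefko sets, against 13.7, 12.5 and 15% in the wild-type sets. ERD7, a gene induced by drought and senescence, had 37.1, 32.6 and 38% in the lefko sets, against 21.3, 21.1 and 22% in the wild-type sets. AT2G23680, a cold acclimation gene of the WCOR413 family, had 68.8, 73.3 and 78.7% in the lefko sets, against 51.5, 52.8 and 53.5% in the wild-type sets. MLO2 and ERD7 were among the smaller rises and were spliced in most reads of both genotypes, while AT2G23680 had a wild-type share of 52.6% as counted and 35.7% with inclusion reads divided by 2. ESB1 and TCH3 are described above.

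Metabolic genes were the largest group, with 11 members, 9 higher and 2 lower, beside 14 higher and 2 lower among the 16 retention genes so described. CCD8, an enzyme of strigolactone synthesis, had 36.1, 48.1 and 30.4% in the lefko sets, against 4.35, 4.76 and 12.5% in the wild-type sets. Its inclusion reads numbered 80 in lefko against 4 in wild type, the largest ratio among the members. APK3, a kinase of sulfate assimilation, had 29.7, 19.2 and 15.5% in the lefko sets, against 3.33, 5.26 and 3.12% in the wild-type sets. NUDT7, a hydrolase of ADP-ribose and NADH that restrains defence, had 29.5, 27.9 and 29.8% in the lefko sets, against 12.3, 11.6 and 16.1% in the wild-type sets. CCD8, APK3 and NUDT7 were spliced in most wild-type reads. AT5G38360, an alpha/beta hydrolase gene, had 52.6, 47.5 and 54.6% in the lefko sets, against 37.3, 28.6 and 28.8% in the wild-type sets, and AT1G58280, of the phosphoglycerate mutase family, had 31.9, 30.4 and 23.9% in the lefko sets, against 14.5, 7.14 and 12.4% in the wild-type sets. The mitochondrial acyl carrier gene mtACP3, the only member described as mitochondrial, had 100, 50 and 100% in the lefko sets, against 0, 85.7 and 40% in the wild-type sets, with sets that spanned nearly the whole scale on 16 reads in each genotype. The words for chloroplast matched no member's description.

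The 15 members in no group varied as widely. EXLA1, an expansin-like gene of the cell wall, had 34.5, 32.8 and 35.1% in the lefko sets, against 13.5, 14.5 and 15.9% in the wild-type sets, and EDA39, a calmodulin-binding protein gene, had 25.2, 22.6 and 20.6% in the lefko sets, against 8.86, 8.65 and 9.17% in the wild-type sets. Both differed little between sets, on 3267 reads in lefko and 4556 in wild type for EXLA1 and on 4573 reads in lefko and 5392 in wild type for EDA39. KICP-02, annotated as a microtubule motor, had 72.7, 61.5 and 64.3% in the lefko sets, against 23.1, 9.09 and 45% in the wild-type sets. TRM21 had 100, 80 and 100% in the lefko sets, against 37.5, 66.7 and 75% in the wild-type sets. AT1G31500, a DNase I-like gene, had 55.5, 44 and 47% in the lefko sets, against 33.5, 26.2 and 24.4% in the wild-type sets. The sets of KICP-02 and TRM21 scattered more but did not overlap. The transmembrane protein genes AT4G21310 and AT3G11880 complete the list. AT4G21310 had 55.4, 57.8 and 61% in the lefko sets, against 35.1, 43.8 and 28.6% in the wild-type sets, and AT3G11880 had 50, 54.3 and 45% in the lefko sets, against 32, 38.5 and 24% in the wild-type sets. Neither overlapped between the genotypes. POD1, GRP9, GEX1, AT5G66550, AT5G17370, AT4G02815, AT4G19500 and AT5G20220 are given above.

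The spread between count sets left most members apart. For 67 of 73 members (91.8%) the ranges of the genotypes were apart, beside 92.5% of all 199 genes, and all 54 members with at least 20 reads in each set were among them. All 343 events had been listed by the authors' test on the same reads, so passing a second test here is no independent support. In a limma fit of the log2 odds of inclusion over all 343 events, 88.0% of events passed an adjusted p under 0.05. Among the members 58 passed as higher and 9 as lower, beside 89.9% of the 199 genes in either direction (76.9% higher and 13.1% lower). The 6 members that missed the threshold were the 6 with overlapping ranges: mtACP3 (adjusted p = 0.132), UMAMIT3 (0.0795), AT1G20380 (0.157), AT5G47510 (0.079), SPI (0.053) and GEX1 (0.17). Fisher's exact test on summed reads, which ignores the spread between sets, called 70 of 73, beside 91.5% of the 199 genes. It missed HTR12, GEX1 and AT1G61440. Leaving out 1 count set at a time kept the direction of all 73, while 17 members missed the limma threshold at least once, 5 of them with at least 20 reads in each set (AT3G11880, AT4G02815, AT5G14610, NAXT1 and POD1). With the third lefko set left out 58 members passed, the lowest number, and with the block of set numbers 65 passed. No such counts are given over all 199 genes, so they do not set the members apart from the other retention genes.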

How the data were processed

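RNA of 1 lefko mutant and 1 wild-type sample was sequenced; reads were aligned to TAIR10 by HISAT2 2.0.4, as the labels' processing notes by the submitters record. The authors deposited 5 event tables which, per the file headers, give inclusion and skipping read counts (3 per genotype in 1 text cell) and a p-value and FDR per event; the program is not given in the sources used here, and no inclusion level or normalization is given. The tables hold only events with an FDR under 0.05, as found from the values. Members and lists were chosen with earlier results of these data known.

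Shares, means and SDs were taken over the 3 sets. Limma 3.58.1 (R 4.3.3) was fitted on log2((inclusion + 0.5) / (skipping + 0.5)) over all 343 events with Benjamini-Hochberg adjustment. The fit was tested on simulated data with a set spread of 0.15 log2 odds. It called 0% of events with no change, 62% with a change of 1 log2 odds and 78% with a change of 2. Fisher's test called 9 of the 143 simulated events with no change. All 343 real events had been listed as changed, so these rates do not give the error rate of the calls above. With 3 sets per genotype an exact permutation test has a smallest p of 0.1 and was not used. Fisher's test used summed reads. A chi-square test between the sets of a genotype gave p under 0.05 for 8 of 66 members in lefko and 11 of 61 in wild type, so the sets were not counted as 1. Reads per set and member had medians of 108 to 116 in lefko and 78.0 to 94.0 in wild type. The limit for 0 reads is 3 reads and covers counting error only.

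All 281 gene identifiers matched RefSeq TAIR10.1. Of 214 retained introns 198 matched an annotated junction exactly with starts counted from 0 and 0 with starts from 1, so 1 was added. A stop codon was searched from the frame of the first annotated transcript in which the spliced intron lies within coding sequence. Codons that run into the downstream exon were left out. Values by set are given for the 12 largest rises and all falls with at least 20 reads in each set, the 5 lowest FDRs, the 4 shortest introns, genes with 2 listed introns and members matched by words of 9 description groups; the other members were named after their values were seen. Python 3.11.15 with pandas 2.3.3, SciPy 1.17.1 and matplotlib 3.10.9 was used.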

Additional observations from a re-analysis of the deposited data

How the results depend on the processing

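No member changed direction in any alternative run. Limits on FDR, size of change, reads or length only keep or drop events and cannot reverse a direction. Every member was also listed for a difference in the same reads, so a kept direction is no independent support. With an FDR of at most 0.01, 37 members were higher and 8 lower, which is 45 of 73 beside 130 of 199 retention genes (65.3%). With a change of at least 20 points, 35 were higher and 5 lower, which is 40 of 73 beside 103 of 199 (51.8%). With at least 20 reads in each set 49 were higher and 5 lower. These alternatives keep fewer events by construction. Dividing inclusion reads by 2 moved the median change to 14.4 points. Leaving out 1 count set at a time gave 62 higher and 11 lower each time and a median change of 18.5 to 19.4 points. The difference in median change between short and longer introns was 0.624 points, and -0.41 with at least 20 reads in each set, 1.97 with a limit of 100 nt and 1.33 with a limit of 120 nt. In limma, 8 to 15 members missed the threshold when a set was left out, the most (15) without the third lefko set. The labels give no replicate numbers beyond 1 sample per genotype. The set numbers did not deviate together (correlations of 0.0525, -0.0271 and -0.0244), and with the set number as a replicate block 56 members were higher and 9 lower. These limma counts are for the members only, with no such counts over all 199 retention genes beside them. For introns with under 20 reads in a set, the share of a single set is set by few reads.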
